A study of Homo sapiens with 8 samples.

Results

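Extracellular lipases cut the lipids carried by lipoproteins in the blood, and a small set of inhibitors, folding factors and plasma lipid transfer proteins sets how those particles are remodelled. The genes described here are the 8 members LIPG, LIPC, LPL, LMF1, ANGPTL8, LCAT, PLTP and CETP, taken by gene symbol out of 60230 genes in the count table. LIPG was chosen by its low measured value under compound 4 against DMSO. The values of the members under compound 4 against DMSO are therefore given as a description without a test. All members were chosen with earlier results of these data known, so the tests of the others may not be independent of the choice. In these data, LIPG was low under compounds 4 and 5 and lay between them and DMSO under compound 6. ANGPTL8 fell to 0.503 of its DMSO level under compound 5, and it was 2.40 times as high under compound 6 as under compound 5. Both values rest on the same compound 5 libraries. LCAT lay below both DMSO libraries in all 6 treated libraries. It did not pass the test under compound 5 or compound 6, except in some alternative settings, and its value under compound 4 is a description. For each compound taken singly, a lack of overlap with DMSO was common, at 55.4% to 59.5% of all tested genes. LIPC, PLTP and LMF1 did not pass the test in any comparison, and LPL and CETP had no counts.

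In the liver, hepatic lipase (LIPC) acts on remnant particles and high-density lipoprotein (HDL), and endothelial lipase (LIPG) acts mainly on HDL phospholipids. Lipoprotein lipase (LPL), made chiefly by muscle and fat, releases fatty acids from triglycerides, needs LMF1 to fold and is restrained by the secreted protein ANGPTL8. Lecithin-cholesterol acyltransferase (LCAT) esterifies cholesterol on HDL, while PLTP and CETP move phospholipids and cholesteryl esters between particles.

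The cells were HepG2, a human liver cancer cell line, made to overexpress the drug-metabolising enzyme CYP2C19 in all 4 groups, the controls included. Each group had 2 samples: DMSO, the solvent control, compound 4 (labelled metylcresol), compound 5 (labelled tetrabut) and compound 6 (labelled cyclohexil). The compounds are plastic antioxidants, and each was given at its own IC50, so that the concentrations differed. The paper calls these IC50 values rather comparable. All are bisphenols: in compounds 4 and 6 a methylene group bridges the rings, which carry tert-butyl groups in compound 4 and cyclohexyl groups in compound 6, whereas in compound 5 the bridge is derived from ethane and the rings carry additional tert-butyl groups in place of methyl groups. The study asked how these compounds affect gene expression in cells with this enzyme. The labels name the samples of each group day 1 and day 2, used here as replicates 1 and 2, and do not say whether they came from separate cultures, so the p-values measure only the spread between these samples, which may be technical.

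The total count per library was between 9791659 and 17814595. The labels mark replicate 1 of DMSO and of compound 4 as merged. All 12 hepatocyte markers examined were detected, with a summed level of 44400 to 46600 CPM (counts scaled to a common library total) under DMSO, 30500 to 39600 under compound 4, 38100 to 38600 under compound 5 and 32600 to 36900 under compound 6. ALB, the highest of these 12, had a mean of 20000 CPM under DMSO, so the sum rests largely on the most abundant genes. The single markers did not all move alike. Under compound 5, for example, AFP had a mean of 6340 CPM beside 8830 under DMSO, and FGA 754 beside 520. Of 8 endothelial markers, 4 were at 0 in every library and none exceeded 13 counts. The summed level of 8 stellate cell and fibroblast markers was 5.95 to 9.74 CPM under DMSO, 23.8 to 25.9 under compound 4, 7.97 to 11.9 under compound 5 and 15.1 to 16.1 under compound 6. Among these 8 markers, 4 were at 0 everywhere, including DCN and LUM, and PDGFRB made up most of the sum. CYP2C19 itself was at 27.7 and 16.4 CPM under DMSO, 31.4 and 44.3 under compound 4, 52.8 and 38 under compound 5, and 23.9 and 21.2 under compound 6. Introduced and endogenous CYP2C19 transcripts were not told apart. The part of these differences in the results below was not tested.

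Positions of the members are on GRCh38, from GENCODE 29. LIPG lies on chromosome 18 from 49560699 to 49599182, LIPC on chromosome 15 from 58410569 to 58569843, LPL on chromosome 8 from 19901717 to 19967259 and ANGPTL8 on chromosome 19 from 11237450 to 11241943. LCAT is on chromosome 16 from 67939750 to 67944131, CETP on the same chromosome from 56961850 to 56983845, LMF1 again on chromosome 16 from 853634 to 981318, and PLTP on chromosome 20 from 45898621 to 45912155.

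Of the 8 members, 6 passed the filter on low counts and were tested. The threshold was an adjusted p under 0.05. Under compound 4 against DMSO, which chose LIPG, the members are described by their log2-fold changes only. LIPG (−3.57) and LCAT (−0.93) had the lowest of these. Of all 13400 tested genes, 9.51% passed the threshold under compound 4 and 3.91% did so with a lower value. Under compound 5, 2 members passed (LIPG and ANGPTL8, both lower), against 8.30% of all tested genes in either direction and 2.95% lower. The LIPG value there is set against the DMSO libraries that chose it. No value of ANGPTL8 is named in the choice, but all members were chosen with earlier results of these data known. Under compound 6, 0 members passed by edgeR's quasi-likelihood test, against 0.575% of all tested genes, while LCAT was the 1 member at an unadjusted p under 0.05. LCAT passed only at the edge of the threshold with DESeq2 (adjusted p = 0.05 after rounding, DESeq2), which called 3.91% of its genes. The 6 members had a median log2-fold change of −0.08 with compound 4, −0.48 with compound 5 and −0.18 with compound 6, beside 0.01, 0.00 and 0.02 for all tested genes. The 3 comparisons share the DMSO libraries. Since whole cell cultures were sequenced, fewer cells that make a transcript and less of it per cell cannot be told apart.

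**Figure D1:**
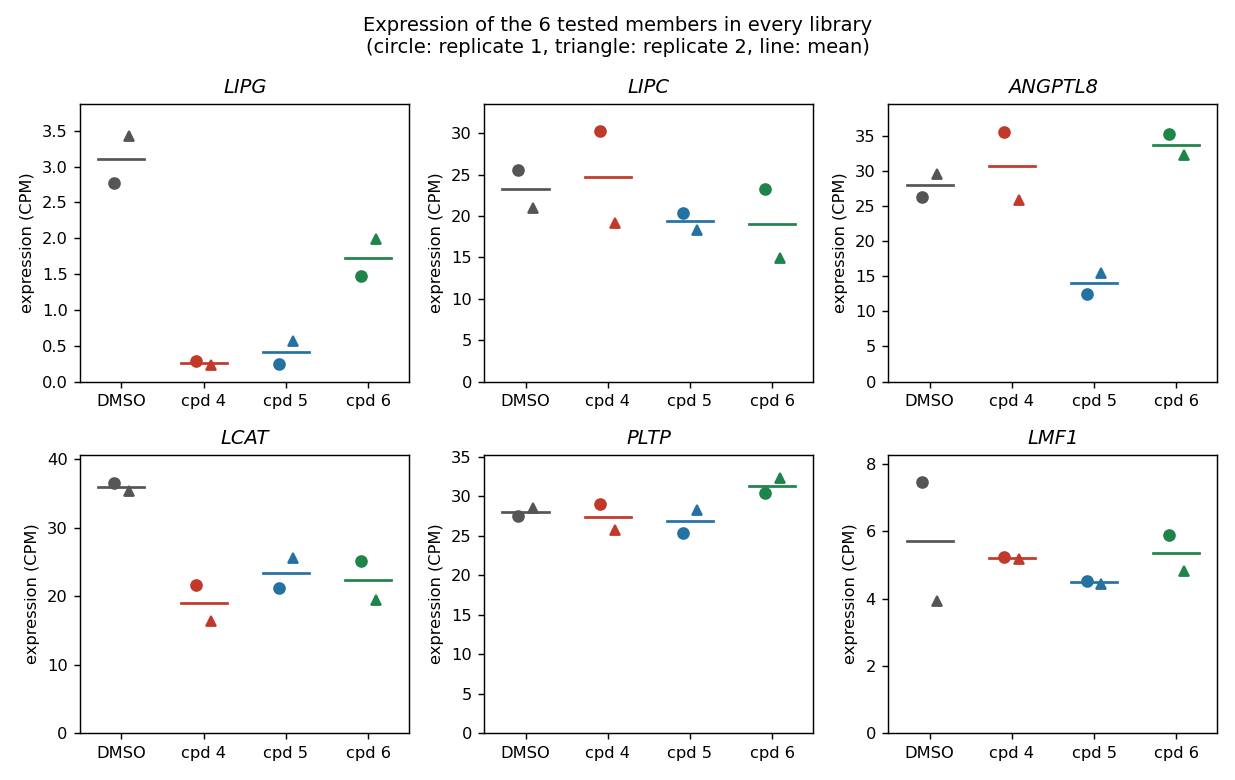
Levels of the 6 tested members in each of the 8 libraries, 1 panel per gene, with TMM-normalised CPM on the vertical axis, the 4 groups on the horizontal axis, a circle for replicate 1, a triangle for replicate 2 and a line at their mean. The LIPG points of compounds 4 and 5 (0.228 to 0.569 CPM) lie under those of compound 6 (1.47 and 1.99 CPM) and of DMSO (2.77 and 3.43 CPM), and the ANGPTL8 points of compound 5 (12.5 and 15.5 CPM) lie under all others.

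The bases before the start of LIPG and ANGPTL8 are shown because these are the members with the widest separation between compounds. The sequences are from RefSeq on GRCh38.p14, whose promoter table listed 6 of the 8 members. LPL and LCAT were not matched. The sequences of LIPG and ANGPTL8 are both on the plus strand, written 5′ to 3′ and ending just before the RefSeq start. The letters CCAAT, the core of the box bound by the factor NF-Y, are in capitals. LIPG is chr18:49561807-49562056 and ANGPTL8 is chr19:11239369-11239618.
LIPG: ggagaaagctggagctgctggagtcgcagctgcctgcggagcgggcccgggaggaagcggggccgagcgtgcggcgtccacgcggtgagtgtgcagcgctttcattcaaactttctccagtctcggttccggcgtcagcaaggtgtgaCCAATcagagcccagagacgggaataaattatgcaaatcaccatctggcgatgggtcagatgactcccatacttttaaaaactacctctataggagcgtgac
ANGPTL8: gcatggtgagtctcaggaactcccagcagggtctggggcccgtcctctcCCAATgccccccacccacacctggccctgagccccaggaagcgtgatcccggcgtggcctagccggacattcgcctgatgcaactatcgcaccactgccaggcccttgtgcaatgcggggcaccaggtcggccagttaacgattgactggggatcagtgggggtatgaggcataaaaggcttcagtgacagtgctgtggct

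In GENCODE 29, the first 84 bases of the LIPG window are also coding sequence of the transcript LIPG-203, which starts further upstream, and the last 26 bases belong to the 5′ UTR of LIPG-201. The CCAAT letters began 102 bases before the start in LIPG and 201 bases before it in ANGPTL8. Searched on both strands over 35116 listed promoters of 300 bases (250 before and 50 after the start), CCAAT was present in 34.6% of them. The core of the sterol regulatory element (TCACNCCAC, in 1.13% of all promoters), the repeat of the sterol receptor LXR (AGGTCA repeated after 4 bases, in 0.0199%) and the repeat of the hepatocyte factor HNF4A (AGGTCA repeated after 1 base, in 0.0228%) matched in none of the listed members. The Sp1 box GGGCGG, in 45.0% of all promoters, was present in PLTP, CETP and LMF1, and the E-box CACGTG, in 7.26%, only in PLTP among the listed members. LIPC held none of the 6 motifs. A match of letters does not show that a factor binds, and a missing match covers only this window.

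LIPG encodes endothelial lipase, a secreted phospholipase of HDL. It had 27 and 41 counts in the DMSO libraries, 3 and 3 under compound 4, 3 and 10 under compound 5, and 15 and 21 under compound 6. After normalisation these were 2.77 and 3.43 CPM under DMSO, 0.281 and 0.228 under compound 4, 0.247 and 0.569 under compound 5, and 1.47 and 1.99 under compound 6. The libraries of compounds 4 and 5 overlapped each other, both of compound 6 lay above them, and both DMSO libraries lay above every treated library. In order, the mean levels were 3.10 ± 0.471 CPM under DMSO, 1.73 ± 0.366 under compound 6, 0.408 ± 0.228 under compound 5 and 0.255 ± 0.0377 under compound 4 (SD, n = 2).

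By summed counts, LIPG was 12.4 times as high under DMSO as under compound 4, with a 95% counting interval from 5.43 to 35.1, because the latter rests on 6 counts. For compound 5 this ratio was 7.16 (3.92 to 14.1), and for compound 6 it was 1.81 (1.19 to 2.79). These intervals cover counting error only. The fitted log2-fold change was −3.57 ± 0.53 (SE) under compound 4, −2.83 ± 0.47 under compound 5 and −0.84 ± 0.41 under compound 6. By this value LIPG ranked 8 among the 524 genes called lower under compound 4. The value under compound 4 chose the gene, and the other pair share the DMSO libraries with it, so they are descriptions too. Within day 1 and day 2 taken alone, the difference on the log2(CPM + 0.5) scale was −2.06 and −2.43 under compound 4, −2.13 and −1.88 under compound 5, and −0.73 and −0.66 under compound 6.

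No library compared between compounds 6 and 5 belongs to the contrast that chose LIPG. The DMSO and compound 4 libraries still entered the fit that set the spread, the filter and the normalisation. LIPG passed the filter on low counts only through the DMSO and compound 6 libraries, where its counts were higher. The test below is therefore not free of the level under compound 6. LIPG was 3.97 times as high under compound 6 by summed counts (95% counting interval 2.05 to 8.15), and the counts of the groups did not overlap. The log2-fold change was 1.99 ± 0.50 (SE), with a 95% interval from 0.88 to 3.10, and its unadjusted p was 0.0026. Over all tested genes it did not pass the threshold (Benjamini-Hochberg adjusted p = 0.083 in the edgeR fit, with a range of 0.0097 to 0.35 over the alternatives). In a fit of only the 4 samples compared, LIPG did not pass either (unadjusted p = 0.006, adjusted p = 0.16, edgeR). It passed when all genes with a count were tested without a filter (adjusted p = 0.0097, edgeR), where 4.29% of the genes passed.

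Between the compounds that differ in tert-butyl or cyclohexyl groups, LIPG was 6.89 times as high under compound 6 as under compound 4 (95% counting interval 2.87 to 20). Compounds 4 and 5 had overlapping LIPG libraries, and the log2-fold change of compound 4 against compound 5 was −0.74, with a 95% interval from −2.20 to 0.73. Both of these are descriptions, since compound 4 chose the gene. The wide interval reflects 6 and 13 counts, and does not show that compounds 4 and 5 act alike on LIPG.

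LIPC encodes hepatic lipase, which hepatocytes secrete. Its levels were 25.5 and 21.0 CPM under DMSO, 30.3 and 19.2 under compound 4, 20.4 and 18.3 under compound 5, and 23.2 and 14.9 under compound 6. The compound 4 libraries lay on either side of both DMSO libraries, and compound 6 overlapped DMSO as well, while both compound 5 libraries lay below DMSO. The log2-fold change was 0.08 under compound 4 (95% interval −0.47 to 0.64), −0.27 under compound 5 (−0.82 to 0.29) and −0.29 under compound 6 (−0.85 to 0.28). None of the 3 comparisons between compounds passed the threshold for LIPC, with log2-fold changes of 0.35 (−0.20 to 0.90) for compound 4 against 5, 0.37 (−0.19 to 0.93) for compound 4 against 6 and −0.02 (−0.58 to 0.54) for compound 6 against 5.

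LPL, the lipase of muscle and fat capillaries, had 0 counts in each of the 8 libraries. A count of 0 allows up to 3 counts, or 0.171 to 0.307 CPM depending on the library. LPL was therefore not detectable at this depth, and no fold change is given. GPIHBP1, which anchors LPL to capillary endothelium, was at 0 counts as well.

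LMF1, the endoplasmic reticulum factor that LPL, LIPC and LIPG need to mature, was expressed. It was at 7.48 and 3.94 CPM under DMSO, 5.25 and 5.17 under compound 4, 4.53 and 4.44 under compound 5, and 5.89 and 4.83 under compound 6. All treated libraries lay between the DMSO libraries, which were themselves the farthest apart of any group (mean 5.71 ± 2.51 CPM, SD, n = 2). The log2-fold changes were −0.12 (95% interval −0.78 to 0.55), −0.33 (−1 to 0.33) and −0.08 (−0.75 to 0.60) under compounds 4, 5 and 6. LMF1 shares 220 exonic bases with the antisense gene LMF1-AS1 and 174 with a long non-coding RNA on its own strand, so its counts are uncertain to that extent.

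ANGPTL8 encodes a small secreted protein that takes part in inhibiting LPL in muscle after a meal. It had 257 and 353 counts under DMSO, 378 and 340 under compound 4, 152 and 272 under compound 5, and 359 and 340 under compound 6. These were 26.3 and 29.6 CPM under DMSO, 35.5 and 25.9 under compound 4, 12.5 and 15.5 under compound 5, and 35.2 and 32.2 under compound 6. Both compound 5 libraries lay below the other 6, compound 4 overlapped DMSO, and both compound 6 libraries lay above DMSO.

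Under compound 5, ANGPTL8 fell by 0.99 on the log2 scale (SE 0.18, 95% interval −1.39 to −0.59). The Benjamini-Hochberg adjusted p was 0.015 in the edgeR fit, with a range of 6.4e-07 to 0.13 over the alternatives. The call was lost without DMSO replicate 1 (adjusted p = 0.070, edgeR), DMSO replicate 2 (0.13) or compound 5 replicate 1 (0.10), with log2-fold changes of −1.08, −0.90 and −0.86. The log2-fold change was 0.13 under compound 4 (95% interval −0.26 to 0.52), and 0.27 under compound 6 (−0.12 to 0.66), which did not pass the threshold. Within day 1 and day 2, the difference between compound 5 and DMSO was −1.04 and −0.91 on the log2(CPM + 0.5) scale.

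Compounds were also compared directly, in 3 pairs. Against compound 5, ANGPTL8 was 2.40 times as high under compound 6, a log2-fold change of 1.26 ± 0.18 (SE), where 1.03% of all tested genes passed. The adjusted p was 0.015 by edgeR's quasi-likelihood test over all genes (2.2e-10 to 0.15 over the alternatives), and 0.025 when adjusted over all genes and all 3 pairs together. This call was lost without compound 5 replicate 1 (adjusted p = 0.077, edgeR), compound 6 replicate 1 (0.15) or compound 6 replicate 2 (0.071).

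The ANGPTL8 differences of compound 5 from DMSO, from compound 4 and from compound 6 all rest on the same compound 5 libraries. They are therefore not separate results. Against compound 5, ANGPTL8 was also higher under compound 4, by a log2-fold change of 1.12 ± 0.18 (SE), where 0.313% of all tested genes passed. The adjusted p was 0.041 by edgeR's quasi-likelihood test (5.1e-08 to 0.21 over the alternatives), and it did not pass without any 1 of the 8 libraries (0.055 to 0.21) or when the other 4 samples were left out of the fit (0.11, with 0.0766% of genes passing). Compounds 4 and 6, which share the methylene bridge, differed by −0.14 with a 95% interval from −0.53 to 0.25 for ANGPTL8. Between compounds 4 and 6, 0 of the 6 tested members and 0% of all tested genes passed by edgeR. DESeq2 called 0 members and 0.496% of its genes, but gave LIPG no adjusted p. The LIPG value for this pair is a description, since compound 4 chose the gene.

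ANGPTL8 lies inside DOCK6 on the opposite strand and shares 350 exonic bases with it. DOCK6, a regulator of small GTPases, differed from DMSO by 0.44, −0.17 and 0.36 on the log2 scale under compounds 4, 5 and 6, none past the threshold. Against compound 5, DOCK6 was at 0.61 under compound 4 and 0.52 under compound 6 (adjusted p = 0.11 each, edgeR's quasi-likelihood test), in the same direction as ANGPTL8. Whether the authors' counting used the strand of the directional libraries is not given in the sources used here, and the part of shared reads was not tested.

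**Figure D2:**
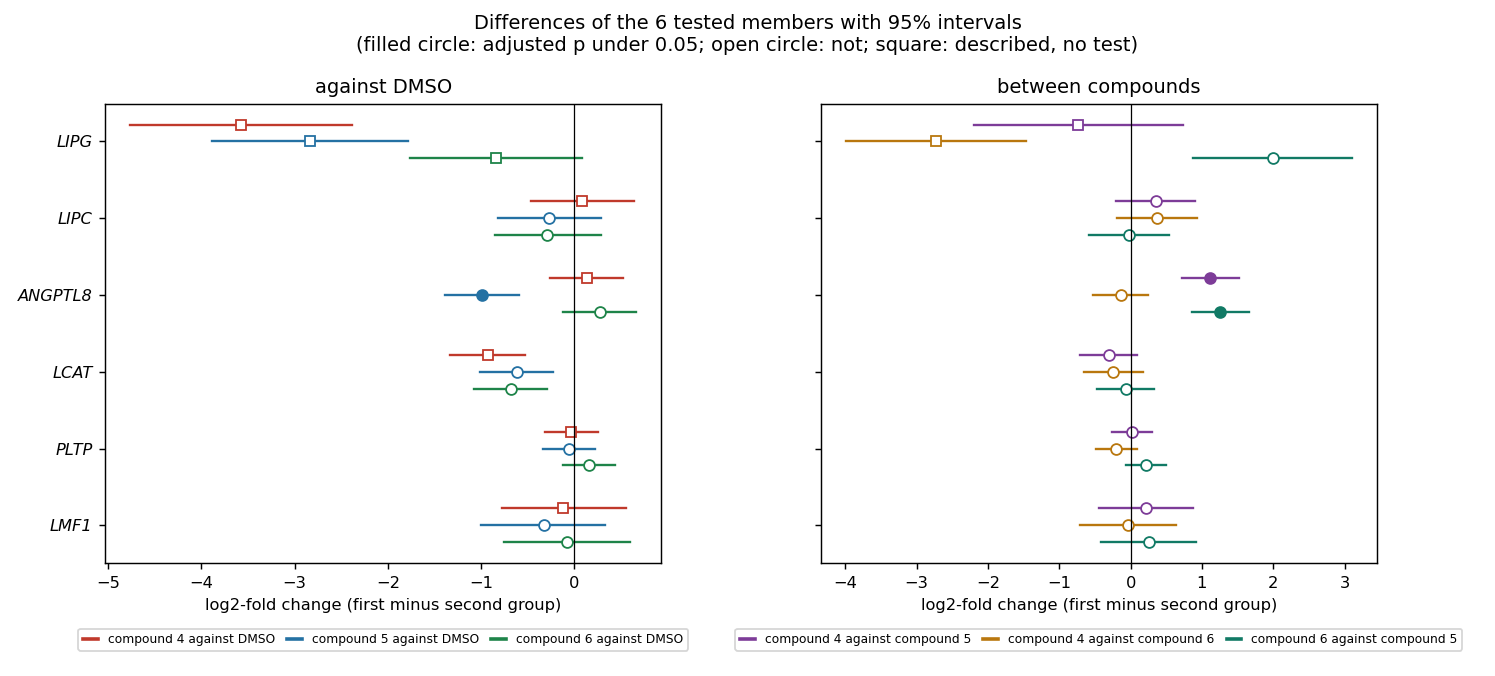
Log2-fold changes of the 6 tested members (points) with 95% intervals (lines), against DMSO on the left and between compounds on the right; filled circles passed an adjusted p of 0.05, open circles did not, and squares are descriptions without a test. ANGPTL8 under compound 5 (−0.99) and in both comparisons with compound 5 (1.12 and 1.26) carries the filled circles, all of which share the compound 5 libraries. The intervals of LIPC, PLTP and LMF1 include 0 throughout.

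LCAT encodes the plasma enzyme that makes cholesteryl esters on HDL. It was at 36.6 and 35.3 CPM under DMSO, 21.6 and 16.3 under compound 4, 21.2 and 25.6 under compound 5, and 25.2 and 19.5 under compound 6. All 6 treated libraries lay below both DMSO libraries, and the treated groups overlapped each other. The mean was 35.9 ± 0.942 CPM under DMSO, 19.0 ± 3.70 under compound 4, 23.4 ± 3.11 under compound 5 and 22.4 ± 4.03 under compound 6 (SD, n = 2). Groups that do not overlap are common here: they were seen in 58.4%, 59.5% and 55.4% of all tested genes under compounds 4, 5 and 6 against DMSO, and in 2, 4 and 4 of the 6 tested members. Between compounds, they were seen in 44.5% of genes and 2 members for 4 against 5, 38.6% and 2 for 4 against 6, and 49.4% and 4 for 6 against 5.

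Against DMSO, the log2-fold change of LCAT was −0.93 under compound 4 (95% interval −1.33 to −0.53), given as a description. Under compound 5 it was −0.62 ± 0.17 (SE), and did not pass the threshold (adjusted p = 0.058 by edgeR's quasi-likelihood test, and 0.0044 to 0.27 over the alternatives). Under compound 6 it was −0.68 ± 0.18 (SE), and did not pass either (adjusted p = 0.10 by edgeR's quasi-likelihood test, and 0.0015 to 0.54 over the alternatives). When compound 6 and DMSO were fitted without the other 4 samples, LCAT passed (adjusted p = 0.023, edgeR), where 7.87% of the tested genes did. With all genes that had a count tested, it passed under compound 5 (0.0044, where 10.5% of the genes passed) and compound 6 (0.0015, where 5.87% did). Between compounds, the LCAT differences were −0.31 for compound 4 against 5 (95% interval −0.71 to 0.09), −0.24 for 4 against 6 (−0.65 to 0.17) and −0.07 for 6 against 5 (−0.47 to 0.33).

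LCAT shares 336 exonic bases with SLC12A4, a potassium-chloride cotransporter gene on the same strand, so the authors' counting could have split reads between them. SLC12A4 differed from DMSO by 0.01, 0.22 and 0.00 on the log2 scale under compounds 4, 5 and 6, none past the threshold. The summed hepatocyte markers were also below both DMSO libraries in all 6 treated libraries, though the single markers did not all fall. Their part in the LCAT values was not tested.

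PLTP encodes phospholipid transfer protein, which moves phospholipids from triglyceride-rich particles to HDL. It was at 27.5 and 28.6 CPM under DMSO, 29 and 25.8 under compound 4, 25.4 and 28.3 under compound 5, and 30.4 and 32.3 under compound 6. Compounds 4 and 5 overlapped DMSO, and both compound 6 libraries lay above it. The log2-fold change was −0.04 under compound 4 (95% interval −0.32 to 0.25), −0.06 under compound 5 (−0.34 to 0.22) and 0.16 under compound 6 (−0.12 to 0.44), and PLTP had the narrowest intervals of the tested members. Between compounds, PLTP differed by 0.02 (−0.26 to 0.30) for 4 against 5, −0.20 (−0.48 to 0.09) for 4 against 6 and 0.22 (−0.06 to 0.50) for 6 against 5. It shares 200 exonic bases with CTSA on the opposite strand, whose log2-fold changes of −0.09, −0.15 and −0.11 did not pass the threshold either.

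CETP, the cholesteryl ester transfer protein, had 0 counts in all 8 libraries, with the same upper limit of 3 counts per library as LPL. The members detected in these cells were thus LIPG, LIPC, LMF1, ANGPTL8, LCAT and PLTP.

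The patterns most like that of LIPG over the 8 libraries, by the smallest root mean square difference of log2(CPM + 0.5) values centred on each gene's mean, were those of PNPLA3 (0.21), IDI1 (0.22), FDFT1 (0.26), HMGCS1 (0.27) and P2RY8 (0.31). For scale, the median over the 12728 genes compared was 0.96, and LIPG itself had a root mean square deviation of 0.94. PNPLA3 is a lipid droplet protein of the patatin-like family, IDI1, FDFT1 and HMGCS1 are enzymes of the mevalonate and sterol pathway, and P2RY8 is a G protein-coupled receptor. PNPLA3 was at 29 and 31.7 CPM under DMSO, 7.51 and 6.92 under compound 4, 4.94 and 10.4 under compound 5, and 18.0 and 16.9 under compound 6. IDI1 was at 91.0 and 96.9, 28.1 and 21.8, 18.9 and 26.7, and 47.1 and 53.4 CPM in the same order of groups. For each of the 5 genes, as for LIPG, the libraries of compounds 4 and 5 were lowest and those of compound 6 lay between them and DMSO. These genes were picked for this likeness, so no test is given.

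**Figure D3:**
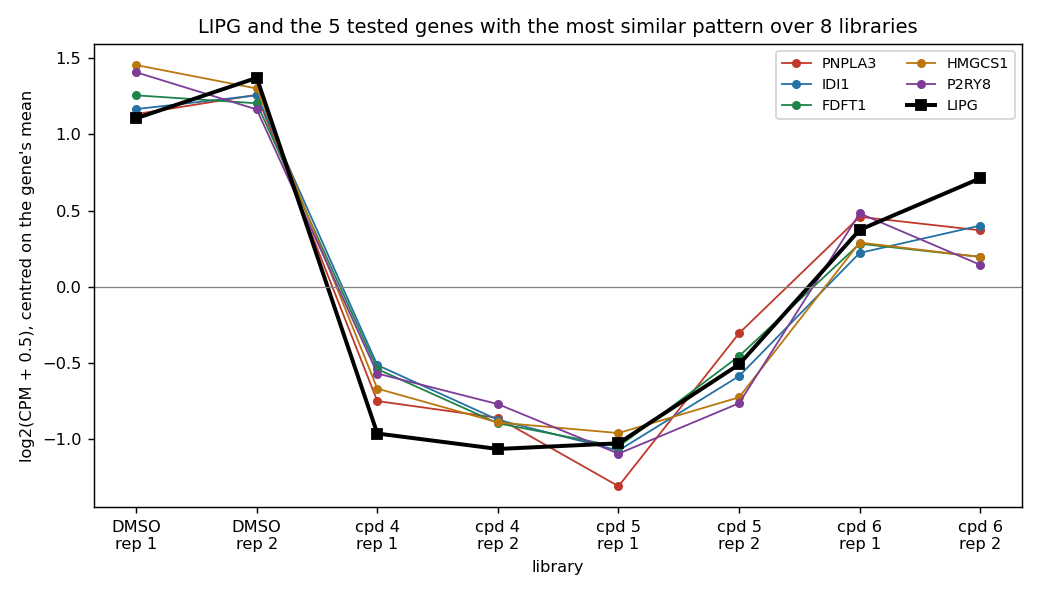
LIPG and the 5 genes with the most similar pattern, as log2(CPM + 0.5) minus each gene's mean, in the 8 libraries. Each line is a gene, and all 6 fall from DMSO to compounds 4 and 5 and lie in between under compound 6; the root mean square differences from LIPG are 0.21 to 0.31.

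The genes that work with these members were described from 4 hand-written lists, of which 68 of 93 genes were tested. Against DMSO, 21 of the 68 (30.9%) passed the threshold under compound 4, 20 (29.4%) under compound 5 and 1 (1.47%) under compound 6, beside 9.51%, 8.30% and 0.575% of all tested genes. For compound 6, DESeq2 called 12 of them, beside 3.91% of all its genes, and the fit without the other compounds called 18, beside 7.87%. The lists were written with earlier results known, so these counts are descriptions.

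Among partners of the lipases, 22 of 25 genes were tested. Under compound 4, FURIN (1.25), a protease that cleaves lipases, and VLDLR (1.27), a receptor for triglyceride-rich particles, rose, and APOC3 (−1.72), APOA5 (−1.20) and CALR (−0.57) fell, the values being log2-fold changes. APOC3 inhibits LPL, APOA5 promotes its action, and CALR is a folding chaperone. Under compound 5, VLDLR (1.32) and the chaperone CANX (0.40) rose, and APOA5 (−1.57), APOC3 (−1.49) and the proteoglycan genes HSPG2 (−0.90) and AGRN (−0.57) fell. The LPL activator APOC2 (−0.15 and −0.05) and the inhibitor APOC1 (0.21 and −0.06) did not pass the threshold under compounds 4 and 5. Under compound 6, APOC3 (−1.31, adjusted p = 0.066) and VLDLR (1.35, adjusted p = 0.079) did not pass edgeR's quasi-likelihood test. The median of the list was 0.05, −0.01 and −0.06 under compounds 4, 5 and 6.

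Among partners in plasma lipoprotein remodelling, 18 of 25 were tested, and under both compounds 4 and 5 every gene past the threshold was lower. Compound 4 lowered 6: APOA4 (−1.10), ABCA1 (−0.98), APOA1 (−0.90), APOH (−0.83), MTTP (−0.78) and PCYOX1 (−0.55). APOA1 is the main HDL protein, ABCA1 exports cholesterol to it, and MTTP loads lipid onto apolipoprotein B. Compound 5 lowered 4: MTTP (−0.75), ABCA1 (−0.73), the HDL receptor SCARB1 (−0.65) and the paraoxonase PON2 (−0.58). Under compound 6, APOA4 (−1.09, adjusted p = 0.048 by edgeR's quasi-likelihood test) was the only gene of the 4 lists past the threshold. The median of this list was −0.31, −0.47 and −0.30, and under compound 5 0 of the 18 had a positive log2-fold change. The highest values were those of the acute-phase apolipoprotein gene SAA4 under compound 4 (0.43) and of the HDL apolipoprotein gene APOA2 under compounds 5 (−0.01) and 6 (0.12), and the lowest under compound 5 was that of APOF (−1.06, adjusted p = 0.17 by edgeR), none of them past the threshold. The summed hepatocyte markers, among them APOH, were lower as well, though the single markers did not all fall. Their part in this was not tested.

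Of 24 other lipases, 9 were tested. PNPLA3 fell under compound 4 (−2.08) and compound 5 (−1.95), and LIPA, the lysosomal acid lipase, fell under compound 4 (−0.66). The carboxylesterase CES1 (0.61 and 0.62) and the diacylglycerol lipase DAGLA (1.07 and 1.38) rose under compounds 4 and 5. Under compound 6, DAGLA was the highest of these 9 (0.87) and PNPLA3 the lowest (−0.80), without passing the threshold.

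All 19 transcription factors of lipid metabolism on the list were tested. SREBF2, which drives sterol synthesis genes, fell under compounds 4 (−0.55) and 5 (−0.64), as did MLXIPL (−0.55 and −0.49), the carbohydrate response factor. The bile acid receptor gene NR1H4 fell under compound 4 (−0.74), whereas NR0B2, a repressor of bile acid synthesis, rose under both (0.80 and 1.12). TFEB, a factor of lysosome genes, rose under compounds 4 (0.78) and 5 (0.73), PPARG under compound 4 (0.88), and TFE3 (0.82), PPARGC1A (0.89) and the clock repressor NR1D1 (2.09) under compound 5. NR1D1 was also the highest of the 19 under compound 4 (1.01, adjusted p = 0.055 by edgeR) and compound 6 (0.87), and NR5A2, a regulator of bile acid genes, was the lowest under compound 6 (−0.59), none past the threshold.

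Between compounds, 2.94% of the 68 listed genes passed for compound 4 against 5 and 4.41% for compound 6 against 5, beside 0.313% and 1.03% of all tested genes. These were 3 genes, named here because they passed. HSPG2, a heparan sulphate proteoglycan, was higher under compound 4 (log2-fold change 1.12, adjusted p = 0.041) and compound 6 (1.40, adjusted p = 0.011) than under compound 5, by edgeR's quasi-likelihood test. PON2 was higher under both as well (0.73 and 0.62, adjusted p = 0.033 each, edgeR), and NR0B2 was lower under compound 6 than under compound 5 (−0.58, adjusted p = 0.037, edgeR). For LCAT, LIPC, PLTP and LMF1, the data gave no difference between compounds past the threshold.

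**Figure D4:**
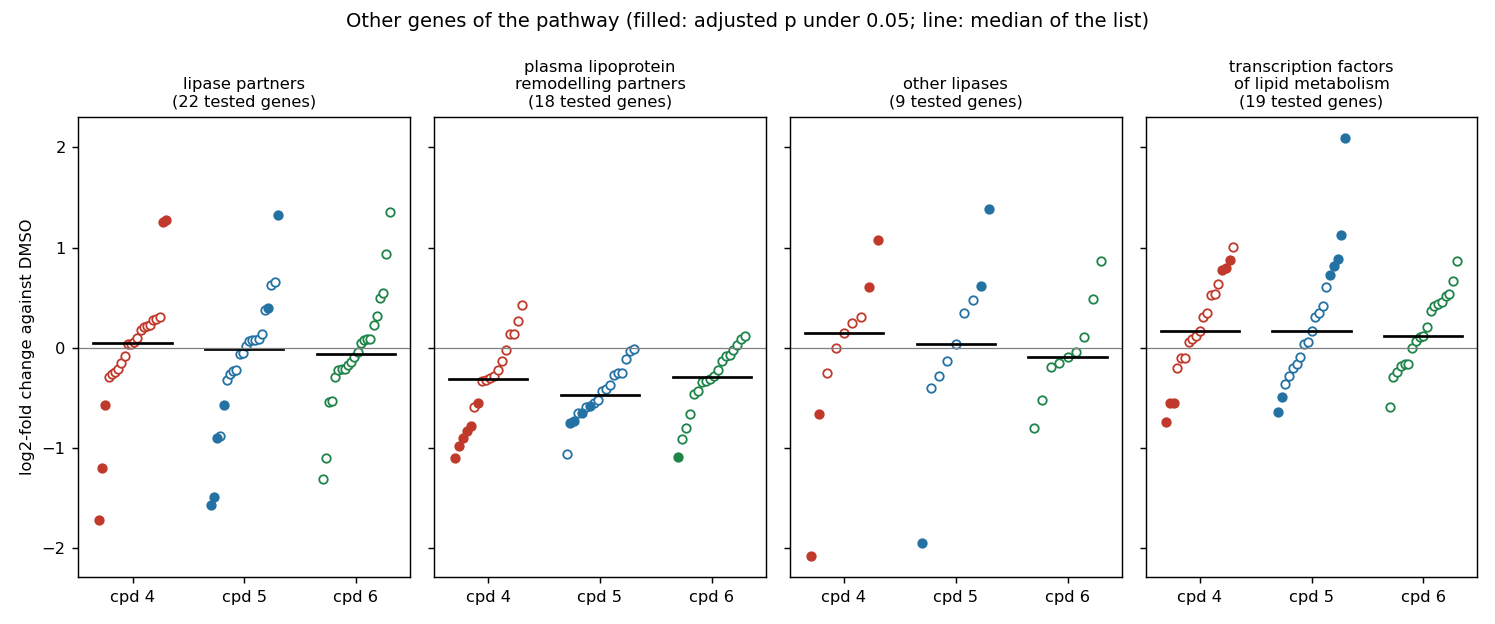
Log2-fold changes against DMSO of the tested genes in the 4 lists, 1 point per gene (filled where the adjusted p is under 0.05), with a line at the median of each list, for compounds 4, 5 and 6. The remodelling partners have medians of −0.31, −0.47 and −0.30, while those of the lipase partners are 0.05, −0.01 and −0.06.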

How the data were processed

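RNA of 8 samples in 4 groups was sequenced from directional libraries. The authors estimated transcript abundance with Salmon 1.5.0 against a GENCODE 38 index on GRCh38, summarised it to genes with tximeta, and deposited these estimated counts as whole numbers without normalisation. FastQC 0.12.0 and DESeq2 1.38.3 are also named in the submitters' processing notes. Here, edgeR 4.0.16 (R 4.3.3) supplied TMM factors, the filterByExpr filter with its minimum count set to 10, and the quasi-likelihood test. All 8 samples entered 1 fit, with Benjamini-Hochberg adjustment over 13400 genes and a threshold of 0.05. CPM use the TMM-scaled totals. The transcript length offsets of tximeta were not used. The test was checked on simulated counts. Symbols matched 60089 of 60230 identifiers. The total counts of 9791659 to 17814595 per library limit precision for genes with few counts, above all LIPG. With 2 samples against 2, no permutation can pass the threshold.

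The members, gene lists and rules were chosen with earlier results of these data known. Genes named are the members, genes overlapping them, for each list and compound the highest and lowest gene and up to 5 genes past the threshold by size, the 5 genes most like LIPG, CYP2C19 and markers. NR0B2, PON2 and HSPG2 between compounds, GPIHBP1, APOC1, APOC2 and further genes past the threshold were named after their values were seen. The pairing of replicates comes from the day in the labels. Over tested genes, the difference between replicates 2 and 1 correlated at −0.16 to 0.30 over 6 pairs of groups. Replicates differed by more than counting noise, with a mean chi-square per gene of 8.20 to 19.1. Alternatives were DESeq2 1.42.0, its size factors, the replicate block, a fit of the 4 samples compared, other filters, thinning to the smallest total, and leaving out libraries.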

Additional observations from a re-analysis of the deposited data

How the results depend on the processing

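With the replicate block, no call of a member changed; the adjusted p of ANGPTL8 was 0.019 for compound 5 against DMSO, 0.020 for compound 6 against 5 and 0.038 for compound 4 against 5 (edgeR's quasi-likelihood test; the ranges over all alternatives are given with each result). With a minimum of 10 counts in every sample, LIPG was not tested. Under compound 5 the number of members past the threshold went from 2 to 3 without a filter, where LCAT passed. It was 2 with 10 counts in every sample, where LCAT passed as well. Under compound 6 it went from 0 to 1 in a fit of only the 4 samples, without a filter, and with DESeq2. For compound 4 against 5 it went from 1 to 0 in a fit of only the 4 samples. Without a filter it went from 0 to 1 for compound 4 against 6 and from 1 to 2 for compound 6 against 5. The member gained was LIPG in both. For compound 4 against 6 nothing is read from it, since compound 4 chose the gene. Of the listed genes, 34 passed under compound 5 without a filter, where 10.5% of all genes did. Under compound 6, 18 passed in the fit of 4 samples (7.87% of all genes), 20 without a filter (5.87%), 12 with DESeq2 (3.91%), 4 with 10 counts in every sample and 3 after thinning, against 1. The causes were not tested. Other filters change which genes enter both the fit, which estimates the spread anew, and the adjustment. Without a filter the unadjusted p-values changed as well. That of ANGPTL8 for compound 6 against 5 went from 4.1e-05 to 5.2e-13 (edgeR's quasi-likelihood test), at log2-fold changes of 1.26 and 1.24.

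Leaving out each library in turn, the number of members past the threshold ranged from 0 to 2 under compound 4, 0 to 3 under compound 5, 0 to 0 under compound 6, 0 to 0 for compounds 4 against 5 and 4 against 6, and 0 to 1 for 6 against 5. Listed genes ranged from 0 to 23, 1 to 23 and 0 to 10 under compounds 4, 5 and 6. The log2-fold changes that changed sign or reached 0.00 when a library or a replicate number was left out had not passed the threshold. Under compound 4 they were ANGPTL8 (−0.19 to 0.42), LIPC (−0.29 to 0.38), LMF1 (−0.52 to 0.40) and PLTP (−0.15 to 0.08), under compound 5 LMF1 (−0.73 to 0.18) and PLTP (−0.14 to 0.00), and under compound 6 LMF1 (−0.48 to 0.43) and LIPC (−0.65 to 0.00). Between compounds they were LIPG (−1.13 to 0.07), LIPC (−0.01 to 0.65), PLTP (−0.13 to 0.19) and LCAT (−0.63 to 0.03) for 4 against 5, ANGPTL8 (−0.39 to 0.07) and LMF1 (−0.18 to 0.12) for 4 against 6, and LCAT (−0.38 to 0.25) and LIPC (−0.38 to 0.26) for 6 against 5. With a library left out, the log2-fold change of LIPG ranged from −3.72 to −3.40 under compound 4 and from −3.59 to −2.44 under compound 5. That of LCAT under compound 4 ranged from −1.15 to −0.73. LIPG was chosen on the DMSO and compound 4 libraries, so these values are descriptions. The call of LIPG under compound 5 was not kept in every such fit, and nothing is read from it. Leaving out a whole replicate number leaves no residual degrees of freedom, and gave values on the log2(CPM + 0.5) scale without a test.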
